A study of Mus musculus with 25 samples.

Results

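Loss of a phosphorylated residue at codon 37 of β-catenin was compared with loss of one at codon 41, using the transcriptomes of 9 clones of E14 mouse embryonic stem (ES) cells. Members were chosen by their labelled genotype and by the study's mutation effect score, a reporter measure of how strongly a mutation activates Wnt signalling. The 5 codon 37 clones were S37A A10, S37C G12, S37F H2, S37F G1 and S37Y A5. The 4 codon 41 clones, all carrying high-scoring substitutions, were T41A C1, T41A E6, T41I B9 and T41I A6. These 9 libraries were part of 25 in all, which also held 6 clones with T41N, T41S, S45C, S45F or S45P and 10 libraries of unedited E14 cells with CHIR99021, an inhibitor of the kinase GSK3.

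All 9 clones carried a heterozygous missense knockin in Ctnnb1, were grown on gelatin in serum with leukemia inhibitory factor, and were labelled 0 µM CHIR99021 and 48 h. Each library came from 1 clonal line. The 4 codon 37 substitutions were represented by 1 clone each except S37F with 2, and T41A and T41I by 2 clones each. A p-value therefore measured spread between clones of a codon, which joins the effect of different substitutions to the differences any clones have. The scores were measured in a different, reporter-carrying ES cell line. The 2 groups were not matched on them, clone by clone or as groups, and no score is given here. The position of the residue and the strength of signalling therefore cannot be told apart. The 2 unedited libraries at 0 µM are given beside the clones as a description only, since they also differed from them in ways given below.

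β-catenin is the effector of canonical Wnt signalling. In the absence of a signal, CK1 phosphorylates serine 45, and GSK3 then phosphorylates threonine 41, serine 37 and serine 33 in turn. Serine 37 lies in the site that the ubiquitin ligase receptor β-TRCP binds, whereas threonine 41 is a relay between the priming site and that site. Stabilized β-catenin enters the nucleus and acts with TCF and LEF factors, and in ES cells it relieves repression by Tcf7l1 of pluripotency genes.

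The reference coding sequence around both residues is shown because the comparison turns on these 2 codons. It runs from codon 31 to codon 48 of Ctnnb1 in exon 3, at chr9:120950599-120950652 on the plus strand of GRCm38 (mm10), and capitals mark codon 37 (serine, chr9:120950617-120950619) and codon 41 (threonine, chr9:120950629-120950631).
Ctnnb1 codons 31 to 48: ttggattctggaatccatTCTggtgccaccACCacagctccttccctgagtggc

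The libraries counted unique molecules at the 3′ ends of transcripts, so exon 3 was not read and the genotype labels could not be checked from these counts. The 9 libraries held 977644 to 2025273 counts, with a median of 1345179. A count of 0 allowed up to 3 counts with 95% confidence, or 1.48 to 3.07 CPM depending on the library (CPM, counts scaled to a common library total), and this limit covers counting error only. Total counts, detected genes, the share of mitochondrial counts and the share of the most abundant gene were tested between the codons with Ctnnb1 in 1 family of 5 exact permutation tests. No adjusted p was below 0.357. The permutations assigned clones singly, so the 2 clones of S37F, T41A and T41I each counted as independent. The mitochondrial share, 1.53% to 2.22% in codon 37 and 1.96% to 2.52% in codon 41 clones, had a two-sided exact p of 0.159 and an adjusted p of 0.397. For each clone and chromosome the median log2 ratio of its genes, taken against the middle of the 9 clones, stayed below 0.1 in size in all but 1 of 180 cases. The exception was chromosome 15 in S37C G12, at 0.13.

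ES cell identity was checked on 5 markers. Sox2 was at 469.5 to 707 CPM, Nanog at 278 to 627, Esrrb at 491 to 661, Zfp42 at 450.1 to 620.1 and Pou5f1 at 14.1 to 28.8. Pou5f1 has processed pseudogenes, and how reads shared with them were counted is not given in the sources used here. Of the fibroblast list, 1 of 8 genes (Pdgfrb) passed the filter on low counts, and Lum was at 0 in all 9 libraries. The sum of that list was 10.2 to 26.7 CPM in codon 37 and 4.82 to 21.6 CPM in codon 41 clones.

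Few genes separated the 2 codons beyond the spread between clones. Of 9548 genes tested with edgeR, 7 had an adjusted p below 0.05 (0.0733% of those tested). The mesoderm factor T and the lysosomal protease gene Ctsc were higher in the codon 37 clones (2 genes, 0.0209%). Ifitm3, Mest, Tcf7l1, Mycn and Enah were higher in the codon 41 clones (5 genes, 0.0524%). In all 7 the values of the 2 groups did not overlap, a state found in 166 genes (1.74%) higher in codon 37 and 151 genes (1.58%) higher in codon 41 clones. At an unadjusted p below 0.05, 470 genes (4.92%) were higher in codon 37 and 391 (4.10%) in codon 41 clones. The median absolute log2 fold change over all genes was 0.15, and the median standard error was 0.18.

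The 7 calls depended on single clones. Leaving out 1 clone at a time gave 0 to 6 calls, not all of them among the 7. There were 0 without S37A A10, S37C G12 or T41A C1, 1 without T41I B9 and 2 without S37F G1 or T41A E6. There were 4 without S37Y A5, of which 3 were among the 7. Without S37F H2 there were 6, of which 4 were among the 7, and without T41I A6 there were 6, of which 3 were. Every one of the 7 genes kept its direction in all 20 alternatives, and the range of the fold change without 1 clone is given with each. DESeq2 on the same counts called 29 genes, the 7 among them. With the mitochondrial share as a covariate, a fit added after the data were seen, 2 genes were called.

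T, or Brachyury, is a T-box factor of the primitive streak and a classic target of Wnt signalling. In the codon 37 clones it was at 36.5 CPM in S37A A10, 43.2 in S37C G12, 50.2 in S37F H2, 58.3 in S37F G1 and 38.0 in S37Y A5. In the codon 41 clones it was at 15.6 in T41A C1, 27.5 in T41A E6, 17.2 in T41I B9 and 17.1 in T41I A6. All 5 codon 37 clones lay above all 4 codon 41 clones, and all 9 lay above the 9.79 and 10.6 CPM of the unedited libraries. The mean was 45.2 ± 9.06 CPM (SD, n = 5) against 19.3 ± 5.49 (SD, n = 4). T was 2.31-fold higher in codon 37 clones (log2 fold change of codon 41 against codon 37 -1.21, SE 0.21, adjusted p = 0.0483, edgeR). Without 1 clone the log2 fold change was -1.42 to -1.11, and T was called in 1 of 9 such fits.

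Ctsc encodes cathepsin C, which activates serine proteases in granules and lysosomes. Its codon 37 levels were 78.2 CPM in S37A A10, 72.7 in S37C G12, 63.0 in S37F H2, 73.7 in S37F G1 and 87.4 in S37Y A5. Its codon 41 levels were 40.1 in T41A C1, 49.1 in T41A E6, 40.0 in T41I B9 and 44.2 in T41I A6, so the groups stood apart by more than the range of the codon 41 clones. Unedited cells had 20.1 and 18.1 CPM. Ctsc was 1.72-fold higher in codon 37 clones (log2 fold change -0.78, SE 0.14, adjusted p = 0.0483, edgeR), and was called in 1 of 9 fits without 1 clone, with log2 fold changes of -0.85 to -0.72.

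Tcf7l1 encodes the TCF family member that represses target genes in ES cells. In codon 37 clones it was at 79.7 CPM in S37A A10, 77.5 in S37C G12, 81.7 in S37F H2, 54.2 in S37F G1 and 75.6 in S37Y A5. In codon 41 clones it was at 126 in T41A C1, 122 in T41A E6, 138 in T41I B9 and 111 in T41I A6. S37F G1 was the lowest of the 9, and the 2 groups did not overlap. Unedited cells, at 151 and 131 CPM, lay near the upper end of the codon 41 clones. The level was 1.68-fold higher in codon 41 clones (log2 fold change 0.75, SE 0.12, adjusted p = 0.0483, edgeR). Leaving out 1 clone kept it between 0.68 and 0.80, with a call in 2 of 9 fits.

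Mycn, the Myc family gene most tied to embryonic progenitors, differed in the same direction. Codon 37 values were 82.6 CPM in S37A A10, 60.8 in S37C G12, 64.1 in S37F H2, 50.1 in S37F G1 and 85.9 in S37Y A5. Codon 41 values were 139.6 in T41A C1, 106 in T41A E6, 132 in T41I B9 and 129.6 in T41I A6. The lowest codon 41 clone, T41A E6, was above the highest codon 37 clone, S37Y A5. Mycn was 1.84-fold higher in codon 41 clones (log2 fold change 0.88, SE 0.15, adjusted p = 0.0483, edgeR), was called in 1 of 9 fits without 1 clone (0.80 to 0.97), and stood at 129 and 102 CPM in unedited cells.

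Ifitm3 encodes an interferon-inducible membrane protein that is also a surface protein of early germ cells. The codon 37 clones had 157 CPM in S37A A10, 172 in S37C G12, 179.9 in S37F H2, 169.8 in S37F G1 and 134 in S37Y A5. The codon 41 clones had 301 in T41A C1, 269 in T41A E6, 271 in T41I B9 and 383 in T41I A6. Unedited cells, at 242 and 284 CPM, were nearer to the codon 41 clones. Ifitm3 had the lowest p of all genes and was 1.90-fold higher in codon 41 clones (log2 fold change 0.93, SE 0.13, adjusted p = 0.0179, edgeR). It was called in 6 of 9 fits without 1 clone, with log2 fold changes of 0.80 to 0.99.

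Mest is an imprinted gene expressed from the paternal allele. Its codon 37 levels were 30.5 CPM in S37A A10, 26.4 in S37C G12, 33.6 in S37F H2, 48.1 in S37F G1 and 39.5 in S37Y A5. The codon 41 levels were 73.1 in T41A C1, 82.5 in T41A E6, 66.8 in T41I B9 and 84.6 in T41I A6. The unedited libraries had 52.7 CPM, between the 2 groups, and 44.7 CPM, within the codon 37 range. The mean was 76.8 ± 8.29 CPM (SD, n = 4) in codon 41 against 35.6 ± 8.45 (SD, n = 5) in codon 37 clones (log2 fold change 1.12, SE 0.17, adjusted p = 0.0239, edgeR), with a call in 4 of 9 fits without 1 clone and log2 fold changes of 1.04 to 1.23.

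Enah encodes a protein that extends actin filaments. It was at 264 to 319.8 CPM in the codon 37 clones, lowest in S37F G1, and at 398 to 459 CPM in the codon 41 clones. The difference was the smallest of the 7 (1.44-fold, log2 fold change 0.53, SE 0.09, adjusted p = 0.0483, edgeR), and Enah was called in 0 of 9 fits without 1 clone, with adjusted p of 0.0702 to 0.321 and log2 fold changes of 0.50 to 0.56.

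**Figure D1:**
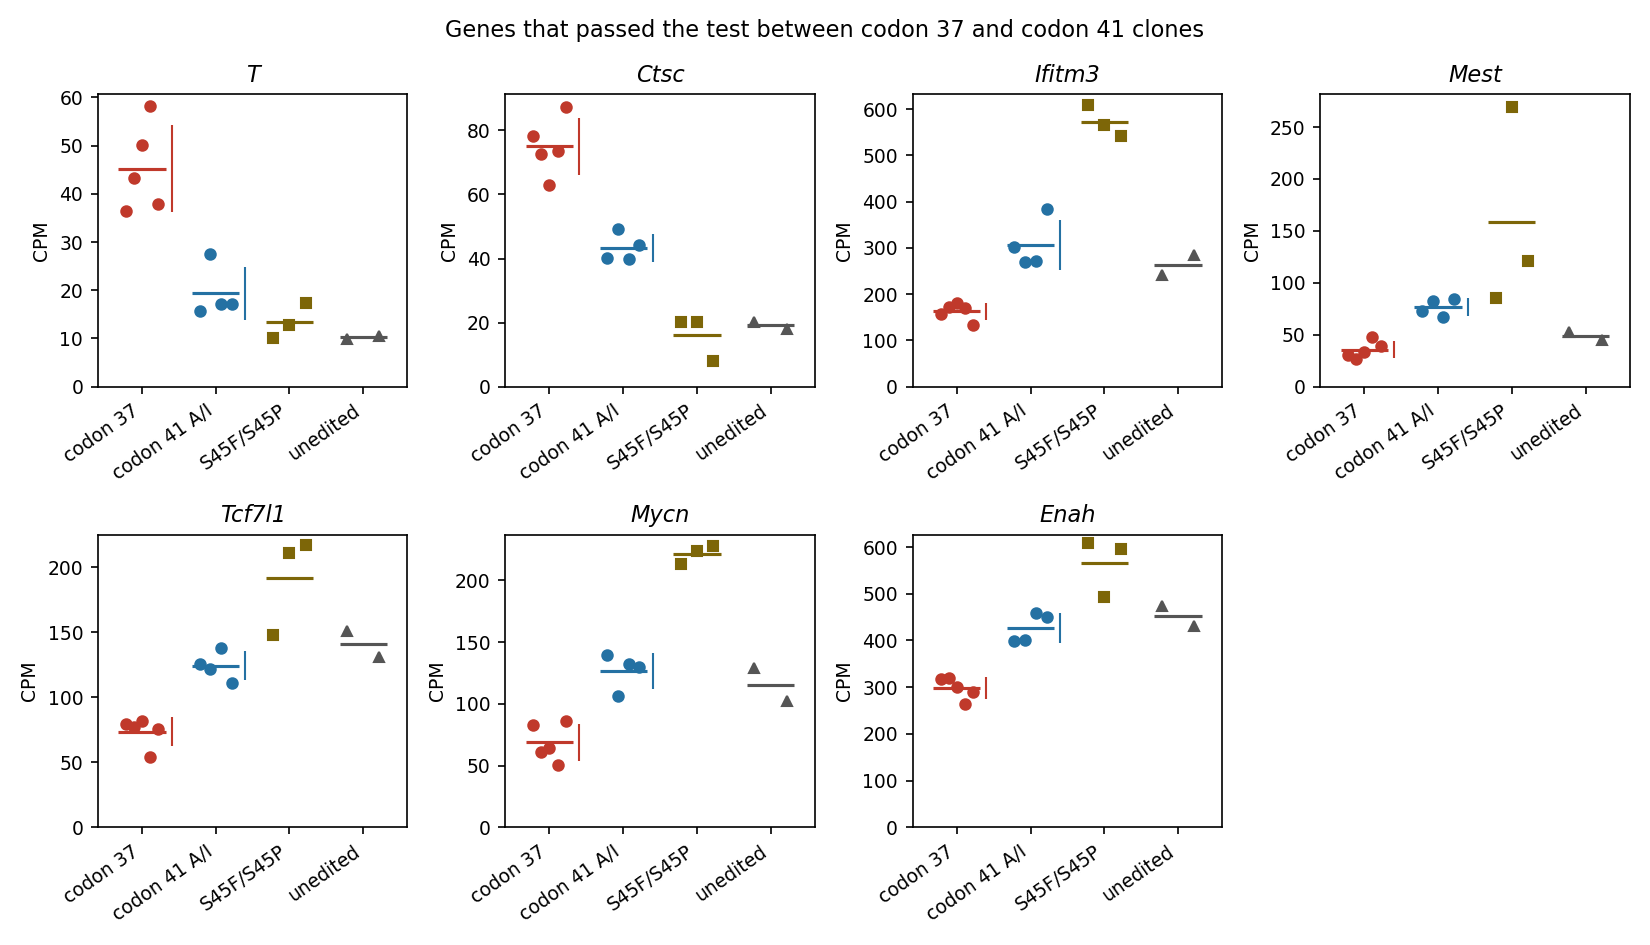
Expression in CPM (vertical axes, from 0) of the 7 genes with adjusted p below 0.05, with 1 point per clone or library (squares, S45F and S45P clones; triangles, unedited cells at 0 µM), a horizontal bar at the group mean and, for the 2 codon groups, a vertical bar of 1 SD. The codon 37 and codon 41 points do not overlap in any panel, for example 36.5 to 58.3 against 15.6 to 27.5 CPM for T.

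On the genome (GRCm38, GENCODE M21) the 7 genes were spread over 5 chromosomes. T (ENSMUSG00000062327.10) lies at chr17:8434423-8442496, Ctsc (ENSMUSG00000030560.17) at chr7:88278085-88310888 and Ifitm3 (ENSMUSG00000025492.6) at chr7:141009586-141010770. Mest (ENSMUSG00000051855.15) lies at chr6:30723547-30748465, Tcf7l1 (ENSMUSG00000055799.13) at chr6:72626378-72789254, Mycn (ENSMUSG00000037169.14) at chr12:12936093-12941914 and Enah (ENSMUSG00000022995.16) at chr1:181896384-182019990. None was on chromosome 15, where S37C G12 stood apart.

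Promoter windows of RefSeq, from 250 bases before to 50 bases after each start (GRCm38.p6), were searched for TCAAAG, the core letters that TCF and LEF factors recognise, on both strands (CTTTGA on the other). Of all 32851 windows 16.0% held it, and of the 9508 windows of tested genes 11.3%. Among the 7 genes a match lay in the windows of T (chr17:8434173-8434472, plus strand) and Mycn (chr12:12941787-12942086, minus strand), which are shown with the letters in capitals. No match in the windows of Ctsc, Ifitm3, Mest, Tcf7l1 and Enah says only that these letters are not there.
T: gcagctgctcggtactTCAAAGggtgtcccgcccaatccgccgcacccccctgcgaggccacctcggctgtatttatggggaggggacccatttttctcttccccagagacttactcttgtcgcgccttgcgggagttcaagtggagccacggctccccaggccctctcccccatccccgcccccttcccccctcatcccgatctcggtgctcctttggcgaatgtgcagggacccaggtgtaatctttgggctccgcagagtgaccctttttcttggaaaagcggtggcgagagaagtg
Mycn: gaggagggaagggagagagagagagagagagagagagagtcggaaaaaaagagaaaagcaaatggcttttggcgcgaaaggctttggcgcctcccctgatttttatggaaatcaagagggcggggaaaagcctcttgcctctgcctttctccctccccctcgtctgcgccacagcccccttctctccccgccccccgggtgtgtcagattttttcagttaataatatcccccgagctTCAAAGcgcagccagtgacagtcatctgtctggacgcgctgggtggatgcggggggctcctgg

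A wider threshold of adjusted p below 0.1 took in 17 genes (0.178% of those tested), 8 higher in codon 37 (0.0838%) and 9 in codon 41 clones (0.0943%). Just outside the threshold of 0.05 stood Dppa3, a gene of naive ES cells and early germ cells. It was at 2.05 to 13.4 CPM in codon 37 and 21.6 to 44.1 CPM in codon 41 clones, without overlap (log2 fold change 1.67, SE 0.31, adjusted p = 0.0821, edgeR). Lncenc1, a long noncoding RNA of naive ES cells, was at 72.6 to 131 against 146 to 199.8 CPM (0.76, SE 0.15, adjusted p = 0.0873). On the codon 37 side Abhd2 was at 179.7 to 236 against 129 to 148 CPM (-0.55, SE 0.11, adjusted p = 0.0923), Krt19, a keratin of epithelia, at a mean of 42.6 against 22.1 CPM without overlap (-0.94, SE 0.19, adjusted p = 0.0944) and Oat, an ornithine aminotransferase, at 84.9 to 115 against 68.9 to 72.1 CPM (-0.59, SE 0.12, adjusted p = 0.0951).

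The edited gene itself was transcribed at similar levels. Ctnnb1 was at 453 CPM in S37A A10, 484 in S37C G12, 455 in S37F H2, 504 in S37F G1 and 433 in S37Y A5, and at 482 in T41A C1, 527 in T41A E6, 513 in T41I B9 and 491 in T41I A6. The 2 groups overlapped, and the unedited libraries had 439.8 and 446 CPM. The difference of mean log2 (CPM + 1) was 0.11, with a two-sided exact permutation p of 0.0714 and an adjusted p of 0.357 over the 5 library measures, where the smallest p that 126 assignments allow is 0.00794. In edgeR the log2 fold change was 0.12 (SE 0.08, adjusted p = 0.703).

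Of 14 tested members of the list of β-catenin and its destruction complex, 0 were called, against 0.0733% of all tested genes. In 10 the fitted level was higher in codon 41 clones, and the median log2 fold change was 0.08 against 0.00 over all genes. Csnk1e, a casein kinase 1 isoform, was at 231 to 352 CPM in codon 37 and 157 to 268 in codon 41 clones (log2 fold change -0.48, SE 0.16, unadjusted p = 0.0109, adjusted p = 0.405, edgeR). It lies on chromosome 15, and S37C G12, at 321, was second to S37F H2. Csnk1a1, the isoform that primes serine 45, was at 369 to 427 against 410.4 to 492 CPM (0.23, SE 0.09, adjusted p = 0.457).

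The study followed 10 direct or feedback targets of Wnt signalling. It selected them for a high correlation with CHIR99021 dose in the unedited cells, so they are read here only between the codons. None was called with edgeR, while DESeq2, a fit without a filter on low counts and a fit with mutation as the factor each called 1, Axin2. Over all genes these fits called 29, 126 and 30. The fitted level of 8 of 10 was lower in codon 41 clones, 5 of them at an unadjusted p below 0.05, and the median log2 fold change was -0.30 against 0.00 over all genes. The summed level of the 10 was 1007 to 1316 CPM in codon 37 and 807 to 1053 CPM in codon 41 clones, which overlapped, and 249.5 and 237 CPM in unedited cells.

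Axin2, a scaffold of the destruction complex that Wnt signalling induces, was the only one of the 10 without overlap between groups. It was at 83.4 CPM in S37A A10, 86.3 in S37C G12, 66.7 in S37F H2, 63.4 in S37F G1 and 87.4 in S37Y A5. In codon 41 clones it was at 38.9 in T41A C1, 52.0 in T41A E6, 52.4 in T41I B9 and 50.4 in T41I A6. Unedited cells had 15.8 and 13.8 CPM, so the lowest clone of the 9 was still above both. Axin2 was 1.60-fold higher in codon 37 clones (log2 fold change -0.68, SE 0.14, unadjusted p = 2.75e-04, adjusted p = 0.124, edgeR).

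The other 4 targets with an unadjusted p below 0.05 overlapped between groups. Tbx3, a T-box factor of naive ES cells, was at 175 to 269 against 127 to 179 CPM (log2 fold change -0.42, SE 0.14, adjusted p = 0.394). Cdx1, a caudal homeobox factor, was at 253 to 335 against 115 to 258 CPM (-0.43, SE 0.18, adjusted p = 0.489), with T41A C1 lowest. Nkd1, a cytoplasmic inhibitor of Wnt signalling, was at 6.14 to 11.2 against 1.55 to 8.27 CPM (-0.99, SE 0.42, adjusted p = 0.506), and its lowest values were within the limit of 3 counts. Etv4, an ETS factor downstream of FGF signalling, was at 106 to 194 against 111 to 130.1 CPM (-0.35, SE 0.16, adjusted p = 0.545).

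The remaining 5 targets had adjusted p of 0.708 to 0.984. Bmp4 was at 112 to 237 CPM in codon 37 and 147 to 178 in codon 41 clones, Gbx2 at 80.1 to 136 and 89.9 to 128, and Sp5 at 61.7 to 128 and 41.3 to 109. Sp5, a factor that acts back on Wnt targets, divided the codon 41 clones by substitution, with 41.3 and 58.7 in T41A and 105 and 109 in T41I. Znrf3, which removes Frizzled receptors, was at 29.7 to 39.5 and 24.1 to 42.7 CPM, and Notum, which inactivates Wnt ligands, at 29.6 to 56.3 and 26.8 to 72.2. The fold changes of Sp5, Znrf3 and Notum, -0.08, -0.04 and 0.03, turned sign under some alternatives.

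**Figure D2:**
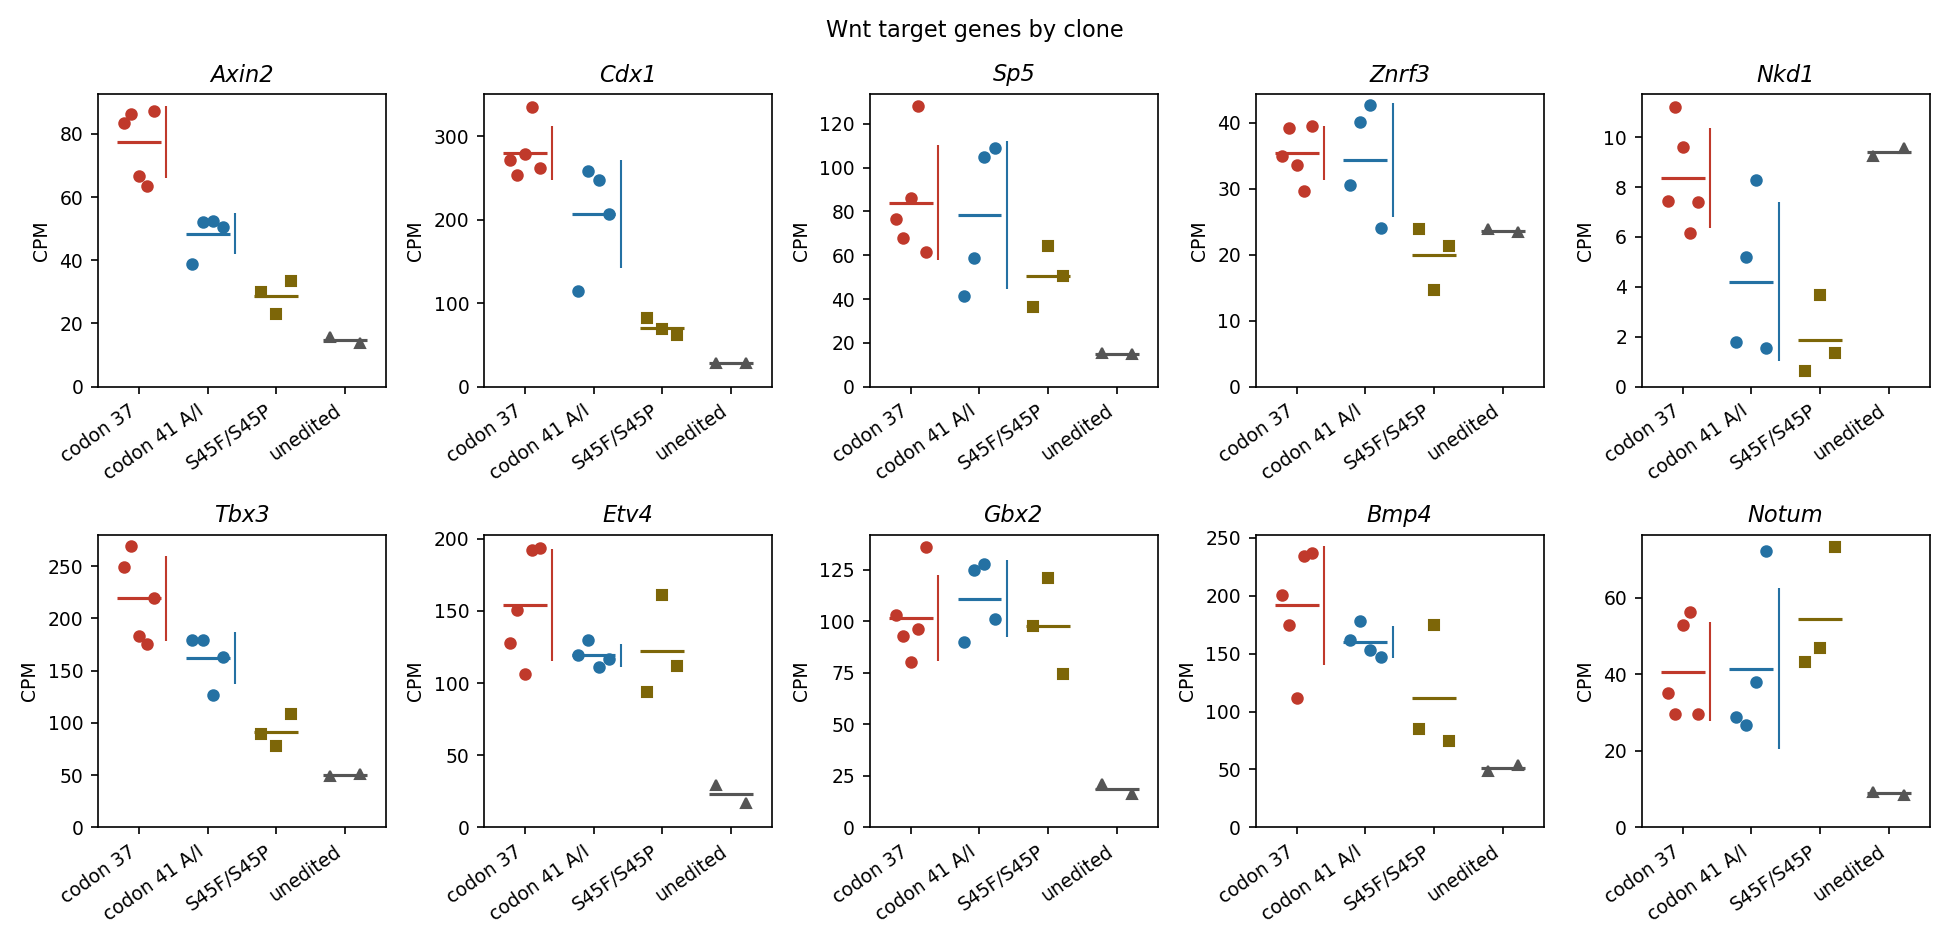
Expression in CPM (vertical axes, from 0) of the 10 Wnt target genes, with 1 point per clone or library (squares, S45F and S45P clones; triangles, unedited cells at 0 µM), a horizontal bar at the group mean and, for the 2 codon groups, a vertical bar of 1 SD. Axin2 alone has no overlap between codon 37 (63.4 to 87.4) and codon 41 (38.9 to 52.4) clones.

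Of 16 further Wnt targets and feedback genes, 8 passed the filter on low counts and T was the only one called (1 higher in codon 37, 0 in codon 41 clones), with a median log2 fold change of -0.04. Not all moved with T. The Wnt receptor gene Fzd7 was at 11.2 to 17.4 CPM in codon 37 and 20.1 to 27.6 CPM in codon 41 clones, without overlap (log2 fold change 0.79, adjusted p = 0.253, edgeR), and was named after its values were seen.

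Pluripotency genes gave no call, which says little about them, since only 0.0733% of all tested genes were called. Of 13 genes of the naive state 1 did not overlap, Dppa3, and the median log2 fold change was 0.12. The summed level was 5118 to 5532 CPM in codon 37 and 5023 to 5735 CPM in codon 41 clones, against 3022 and 2885 CPM in unedited cells. Nanog was at 278 to 512 against 379 to 627 CPM (log2 fold change 0.28, SE 0.18, adjusted p = 0.666). Among 10 general pluripotency genes the median was 0.11, and 2 had an unadjusted p below 0.05. L1td1, an RNA-binding protein, was at 207 to 257 against 269.9 to 319 CPM without overlap (0.36, SE 0.10, adjusted p = 0.286), and Sox2 at 469.5 to 605 against 549 to 707 CPM (0.28, SE 0.10, adjusted p = 0.423). Of 10 primed pluripotency genes 6 were tested, with 0 at an unadjusted p below 0.05 and a median of 0.27. Zic2, a zinc finger factor, was at 2.14 to 9.68 against 3.88 to 12.6 CPM (adjusted p = 0.776).

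Primitive endoderm genes had the largest median of the lists with more than 1 tested member. Of 12 genes 8 were tested, all 8 had an unadjusted p below 0.05 in the direction of codon 37, none was called with edgeR or DESeq2, and the median log2 fold change was -1.32. Without a filter on low counts 8 of 12 were called, against 126 of all 21020 genes. With mutation as the factor 3 of 8 were called, against 30 of all 9548. The summed level was 1878 CPM in S37A A10, 1155 in S37C G12, 747 in S37F H2, 1003 in S37F G1 and 2697 in S37Y A5. In the codon 41 clones it was 1283 in T41A C1, 707 in T41A E6, 597 in T41I B9 and 543 in T41I A6. The groups overlapped, since T41A C1 was above 3 of the 5 codon 37 clones, and unedited cells had 703 and 746 CPM. The largest part of this sum was Sparc, at 341 to 1374 CPM in codon 37 and 345 to 726 CPM in codon 41 clones. In unedited cells Sparc was at 458 and 502 CPM.

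Gata6, a factor that specifies primitive endoderm, was at 26.1, 19.2, 10.7, 13.3 and 85.4 CPM in S37A A10, S37C G12, S37F H2, S37F G1 and S37Y A5. It was at 16.2, 8.92, 10.3 and 3.10 CPM in T41A C1, T41A E6, T41I B9 and T41I A6 (log2 fold change -1.69, SE 0.58, adjusted p = 0.403, edgeR). S37Y A5 held the highest value of the 9 clones. In the unedited libraries Gata6 was at 3.81 and 2.13 CPM, where 3 counts were 1.63 and 3.19 CPM. Lama1, a basement membrane laminin, was at 177 to 413 against 82.0 to 189 CPM (-1.18, SE 0.27, adjusted p = 0.184), and S37Y A5 was again highest and T41A C1 the highest codon 41 clone. Without S37Y A5 the list's median was -0.85, with 4 of 8 genes at an unadjusted p below 0.05. Without both T41I clones it was -0.77, with 1 of 10. The part of these genes in the other differences was not tested, and in bulk samples a higher share of cells of a type and more RNA per cell cannot be told apart.

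The lists of other lineages gave 0 calls, against 0.0733% of all tested genes, and T was counted with the Wnt genes. Of the mesendoderm list, 5 of 15 genes passed the filter, with a median of 0.20. Eomes was at 14.4 to 28.6 against 7.43 to 16.5 CPM (log2 fold change -0.78, SE 0.29, adjusted p = 0.437), while Lefty2, a Nodal inhibitor, was at 10.4 to 39.0 against 17.8 to 85.3 CPM (1.07, SE 0.41, adjusted p = 0.456). Of the neural list 3 of 12 were tested, with Tubb3 at 15.6 to 36.8 against 20.8 to 77.6 CPM (0.87, SE 0.33, adjusted p = 0.454) and Nes at 3.72 to 11.2 against 6.20 to 8.18 CPM. The neural sum was 46.2 to 96.2 against 66.5 to 134 CPM. Of the trophectoderm list 6 of 10 were tested, with a median of -0.36. Tfap2c was at 8.39 to 17.4 against 18.6 to 24.1 CPM without overlap, opposite in direction to Krt19 (0.75, SE 0.24, adjusted p = 0.384).

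Hypoxia and glycolysis genes were fitted lower in codon 41 clones in 14 of 14 cases, with a median log2 fold change of -0.34, 4 at an unadjusted p below 0.05 and 0 called with edgeR or DESeq2. Without a filter on low counts 8 had an unadjusted p below 0.05 and 2 were called, against 1539 and 126 of all 21020 genes. Summed, the list made up 7632 to 10449 CPM in codon 37 and 6390.4 to 8064 CPM in codon 41 clones, overlapping and below the 14434 and 14727 CPM of unedited cells. Ndrg1, a hypoxia-induced gene, was at 14.1, 13.6, 40.6, 23.5 and 16.8 CPM in S37A A10, S37C G12, S37F H2, S37F G1 and S37Y A5, against 4.82 to 13.4 CPM in codon 41 clones (-1.16, SE 0.37, adjusted p = 0.377, edgeR). The groups were apart by a narrow margin, since 13.6 in S37C G12 stood next to 13.4 in T41A E6. Eno1, a glycolytic enzyme, was at 202 to 388 against 142 to 216 CPM (-0.57, SE 0.17, adjusted p = 0.347). Several genes of this list have processed pseudogenes. Without both T41I clones the median was -0.12.

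**Figure D3:**
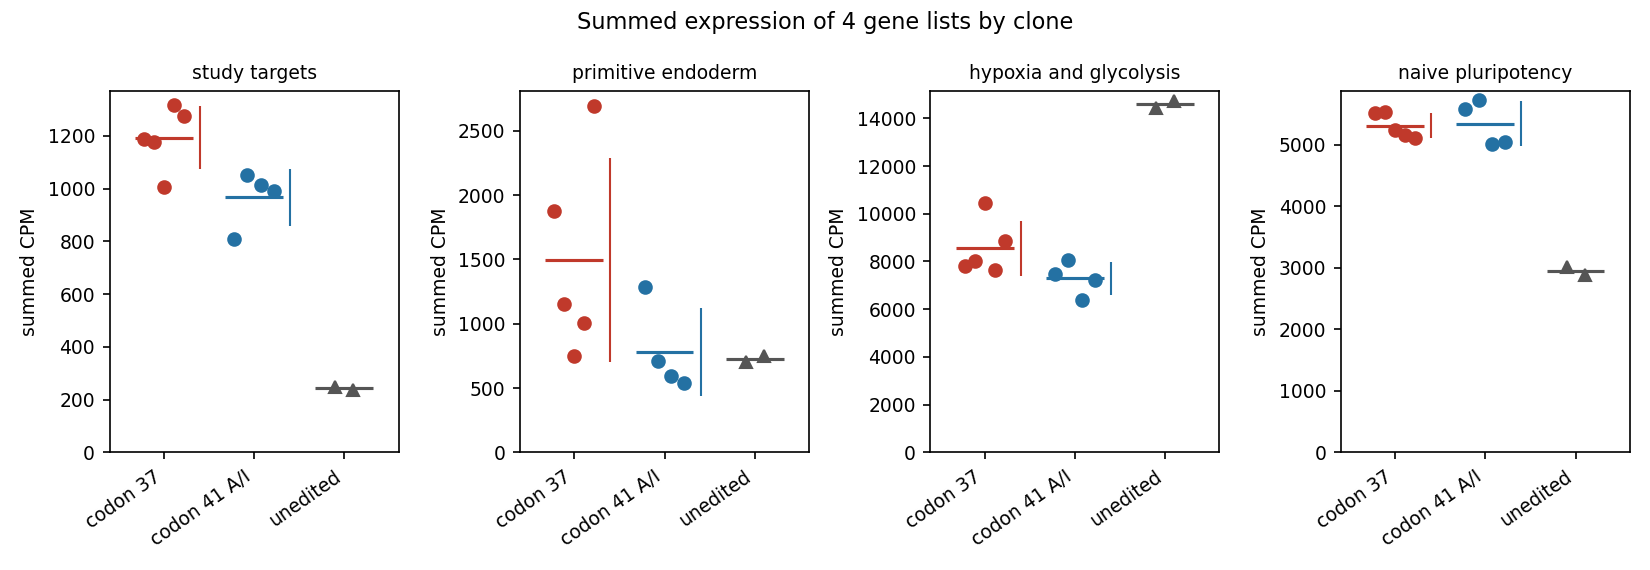
Summed expression in CPM (vertical axes, from 0) of the Wnt targets, primitive endoderm, hypoxia and glycolysis, and naive pluripotency lists, with 1 point per clone or unedited library, a horizontal bar at the mean and, for the 2 codon groups, a vertical bar of 1 SD. In each panel the codon 37 and codon 41 points overlap, as for primitive endoderm at 747 to 2697 against 543 to 1283 CPM.

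Imprinted genes included 1 call, Mest, among 18 tested of 26, with a median log2 fold change of 0.06. Impact, which is expressed from the paternal allele in mouse, was at 148 to 275 CPM in codon 37 and 279 to 376 CPM in codon 41 clones (0.71, adjusted p = 0.159), and Igf2r, expressed from the maternal allele in most tissues, at 143 to 228 against 136 to 143 CPM, whose nearest clones both round to 143 (-0.34, adjusted p = 0.445). Both were named after their values were seen.

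In the other lists 0 genes were called, against 0.0733% of all tested genes. The p53 list had 10 tested genes and a median of 0.13. Trp53 itself was at 261 to 328 against 350.2 to 476 CPM (log2 fold change 0.52, SE 0.11, adjusted p = 0.123, edgeR), and Cdkn1a, the p53-induced inhibitor of cyclin-dependent kinases, at 375 to 451 against 306 to 351 CPM (-0.32, SE 0.09, adjusted p = 0.317). Both were without overlap, in opposite directions. The cholesterol synthesis list had 10 of 11 fitted lower in codon 41 clones, with a median of -0.16 and Dhcr7 at 34.4 to 58.7 against 28.9 to 40.1 CPM (-0.41, SE 0.18, adjusted p = 0.526). The adherens junction list, with 11 tested and a median of 0.03, held 3 genes at an unadjusted p below 0.05 in the direction of codon 41. Among them were Vcl at 41.9 to 73.6 against 55.9 to 103 CPM (0.53, SE 0.19, adjusted p = 0.435) and Jup, or plakoglobin, at 151 to 207 against 195 to 269 CPM (0.33, SE 0.13, adjusted p = 0.456).

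The contractile actin list had 9 tested genes and a median of 0.19, with Acta2 at 8.18 to 33.6 against 19.4 to 44.8 CPM (0.95, SE 0.34, adjusted p = 0.435) and Tagln, with a wider spread in codon 41 clones, at a mean of 40.0 against 53.8 CPM (0.43, SE 0.23, adjusted p = 0.598). The stress list of ATF4 had 9 tested genes and a median of -0.04. Ddit4 was at 44.4 to 172 against 35.7 to 52.8 CPM (-1.15, SE 0.32, adjusted p = 0.312), with S37F H2 highest, and Psat1 at 539 to 671 against 593 to 867 CPM (0.25, SE 0.12, adjusted p = 0.549). The signalling lists of LIF and STAT3, FGF and ERK, and BMP and Id had medians of -0.13, 0.01 and -0.03, and the DNA methylation list 0.00. Tet1, which oxidises methylated cytosine, was at 149 to 225 against 197 to 226 CPM (0.27, SE 0.12, adjusted p = 0.526).

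The codon difference was set beside the response of unedited E14 cells to CHIR99021, in 10 other libraries at 0, 2.5, 5, 7.5 and 10 µM with 2 per dose. This comparison was added after the data were seen. A linear fit of dose in edgeR over the same 9548 genes called 1147, of which 529 rose (5.54%) and 618 fell (6.47%). In all, 4 of these libraries, 1 each at 0, 2.5, 5 and 10 µM, had mitochondrial shares of 0.485% to 0.562% against 0.986% to 1.46% in the other 6, and 1 library at 10 µM held 306157 counts.

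Each of the 7 genes called between the codons was also called for dose, and the direction was matched. T rose by a log2 change of 2.74 from 0 to 10 µM (adjusted p = 2.55e-06) and Ctsc by 1.89 (adjusted p = 2.36e-06), and both were higher in codon 37 clones. Ifitm3 (-1.38), Mest (-1.41), Tcf7l1 (-1.03), Mycn (-1.33) and Enah (-1.21) fell with dose, and all 5 were higher in codon 41 clones. Over all 9548 genes 55.5% had this relation of signs and 8.05% were called for dose in that direction. Of the 17 genes with an adjusted p below 0.1, all 17 had the relation of signs and 14 were called for dose. Lncenc1 (-0.01), Plpp5 (0.53) and Tulp4 (0.09) were the 3 without a dose call.

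The dose response of the 10 Wnt targets was the basis on which the study chose them, so it is given as a description. Axin2 rose by 2.76, from 14.8 ± 1.37 CPM (SD, n = 2) at 0 µM to 116 ± 25.5 at 10 µM, and the codon 37 mean of 77.5 lay nearer to the upper level than the codon 41 mean of 48.4. Sp5 rose by 2.64 and Notum by 2.91 with dose, and their codon log2 fold changes were -0.08 and 0.03. All 10 rose with dose, and the codon level was fitted higher in codon 37 clones for 8 of them.

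**Figure D4:**
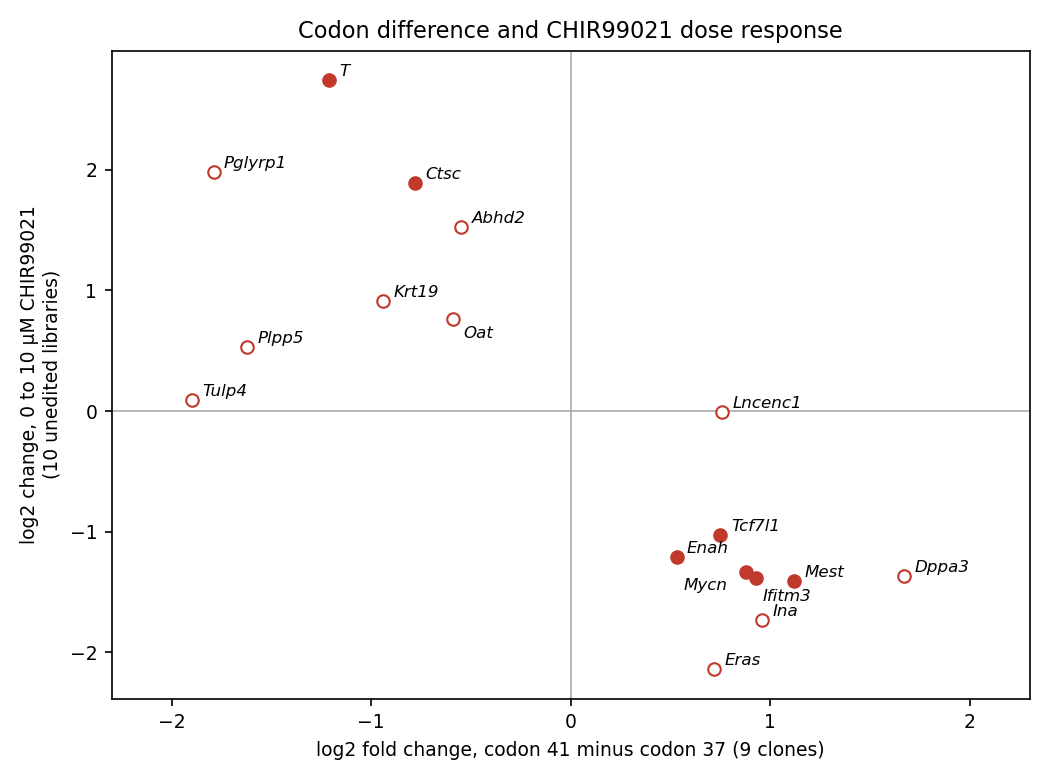
Log2 fold change between codon 41 and codon 37 clones (horizontal axis, positive where higher in codon 41) against the log2 change from 0 to 10 µM CHIR99021 in unedited cells (vertical axis) for the 17 genes with a codon adjusted p below 0.1, of which the 7 filled points are below 0.05. All 17 lie in the upper left or lower right, from T at -1.21 and 2.74 to Dppa3 at 1.67 and -1.37.

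Clones with S45F or S45P placed these genes on a wider scale. In the 3 clones with S45F or S45P, whose levels are a description beside both groups, T was at 13.4 ± 3.66 CPM (SD, n = 3), Ctsc at 16.1 ± 7.01 and Tcf7l1 at 192 ± 38.2. Ifitm3 was at 572 ± 34.0, Mycn at 221 ± 7.73, Enah at 566 ± 64.5 and Mest at 159 ± 97.8. For all 7 genes the codon 41 mean lay between the codon 37 mean and this mean, as for 15 of the 17 genes below 0.1 and 44.1% of all genes. Krt19 and Tulp4 were the 2 exceptions. S45C D3, the other codon 45 clone, was not in this mean. It held T at 19.6 CPM, beside the codon 41 mean of 19.3, and Mycn at 436. In T41S H8 the order was also not kept, with Ctsc at 45.2, within the codon 41 range, and Enah at 375, between the 2 codon groups. The clones with T41N and T41S, which change the same residue as the codon 41 group, differed from each other. T was at 8.07 CPM in T41N D3, a library of 495616 counts in which 3 counts were 6.05 CPM. In T41S H8 it was at 48.6 CPM, within the range of the codon 37 clones. Mycn, at 287 in T41N D3 and 219.8 in T41S H8, was above all 9. Both clones also differed from the 9 in markers of cell state. Acta2 was at 646 and 1169 CPM against 8.18 to 44.8 in the 9, and the keratin gene Krt8 at 718 and 1738 against 78.5 to 198. Esrrb was at 274 and 121 against 491 to 661. Their levels of T are therefore not a comparison of alleles alone. S45P G5, which entered the S45F and S45P mean, was also outside the range of the 9 in these markers. It had Acta2 at 133, Krt8 at 288 and Esrrb at 371 CPM, and S45C D3 had 241, 505 and 216. In S45F C1 and S45F D9, Acta2 was at 53.4 and 25.7, Krt8 at 178 and 68.8 and Esrrb at 584 and 525. Levels in S45P G5 and S45C D3 are thus not a comparison of alleles alone either.

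Substitutions within a codon were compared in a fit with mutation as the factor, which takes its spread from the pairs of clones with S37F, T41A and T41I. Between T41I and T41A 0 of 9548 genes were called with edgeR (0%), with 826 at an unadjusted p below 0.05, and DESeq2 called 0. Sp5 and Tubb3 were among the 4 genes of lowest p, both higher in T41I (log2 fold changes of 1.11 and 1.34, adjusted p = 0.316 for each). Among the 4 codon 37 mutations 11 genes differed (0.115%), with 823 at an unadjusted p below 0.05. S37A, S37C and S37Y had 1 clone each, so differences between these mutations and between single clones cannot be told apart. In the same fit the contrast of the codons called 30 genes, the 7 among them, 19 higher in codon 37 and 11 in codon 41 clones, and the median over the Wnt targets was -0.30.

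Same-mutation clones were separate libraries. The chi-square per degree of freedom of their counts was 3.17 for S37F, 1.79 for T41A and 3.96 for T41I, so in no pair did the counts look like 1 library deposited more than once.

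Over the whole profile, clones of different codons were not set apart. The mean Euclidean distance on log2 (CPM + 1) over the 9548 genes was 48.5 ± 7.5 (SD) for the 20 pairs of different codons, 47.2 ± 7.71 for the 13 pairs of the same codon with other mutations and 45.6 ± 6.71 for the 3 pairs of the same mutation. The ranges overlapped almost entirely. Single clones set much of the spread. T41I A6 was 45.7 from S37F G1, of the other codon, but 50.7 to 59.8 from every other clone, with 51.9 from T41I B9. S37F G1 was 46.3 from S37F H2 and 53.7 to 60.4 from the remaining clones. The missing separation therefore does not show that the codons are alike. Distance between codons exceeded that within codons by 1.69, with a two-sided exact permutation p of 0.325 over 126 assignments of the clones. Here too clones of 1 substitution were assigned singly. Without 1 clone the excess was 1.03 to 2.72.

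**Figure D5:**
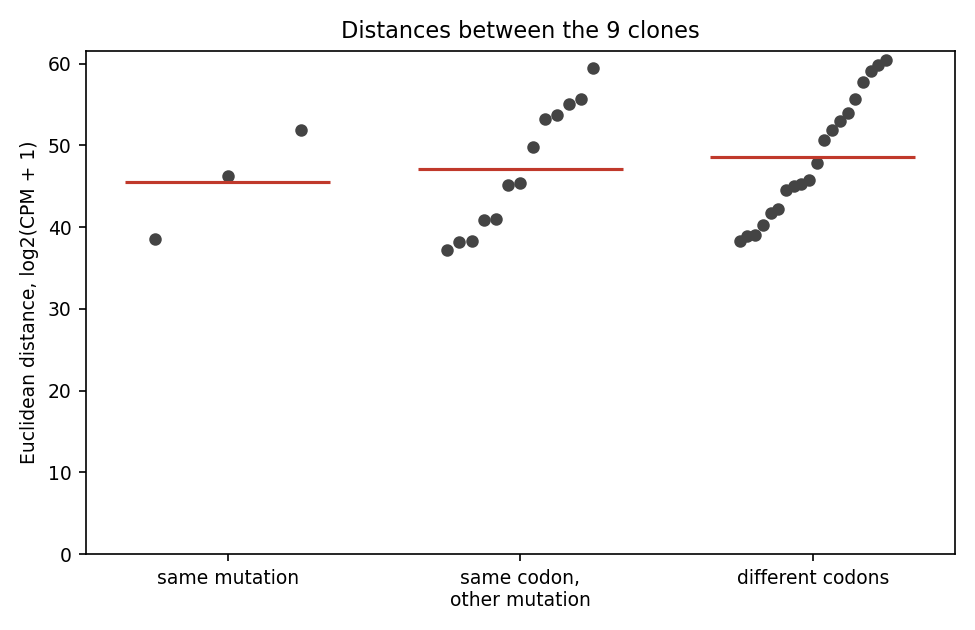
Euclidean distance on log2 (CPM + 1) over 9548 genes (vertical axis, from 0) for each pair of the 9 clones, by whether the pair shares a mutation, only a codon, or neither, with a bar at each mean. The means are 45.6, 47.2 and 48.5, and the points of the 3 kinds overlap.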

How the data were processed

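RNA of 25 E14 libraries was sequenced with mcSCRB-seq. Per the file headers and methods, the authors deposited raw counts per gene, made by trimming, UMI extraction and removal of ribosomal RNA reads, alignment to mm10 with RNA STAR, deduplication with UMI-tools and Picard, and featureCounts 2.0.1. The deposited counts were not normalized. Annotation release and strandedness are not given in the sources used here, and 48058 of 48440 gene IDs were found in GENCODE M21, which gave names and coordinates. The 1570 Y chromosome genes were left out. CPM were computed from total counts. The 9 clones were compared with edgeR 4.0.16 (TMM, filterByExpr with minimum count 10, quasi-likelihood F-test, false discovery rate 0.05). Library measures and distances used exact permutation tests (Python 3.11.15). DESeq2 1.42.0, other normalization, filters, fits and left-out clones were alternatives. The fit was tested on simulated data.

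Genes named were Ctnnb1, 10 Wnt targets, up to 12 genes per direction with adjusted p below 0.05, at least 20 CPM and no overlap, 6 of lowest p where a direction held fewer than 6, and, per list, members called or the 2 of lowest p. A gene that this rule names is not reported here. Members and lists were chosen with earlier results of these data known. Depth was 977644 to 2025273 counts in the 9 clones.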

Additional observations from a re-analysis of the deposited data

Results flagged for a closer look

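In 112 groups of 4 or 5 clones, 1 for each named gene and codon, 6 held a clone far from the others of its group by Dixon's test, where chance flags about 1 in 20. In the codon 41 group Axin2 was lowest in T41A C1 at 38.9 CPM, with the other clones at 50.4 to 52.4, and Tfap2c was lowest in the same clone at 18.6, with the others at 23.4 to 24.1. Tet1 was lowest in T41A E6 at 197, with the others at 224 to 226, and Srebf2, a regulator of cholesterol synthesis, was lowest in T41I A6 at 82.2, with the others at 103 to 107. In the codon 37 group Tcf7l1 was lowest in S37F G1 at 54.2, with the others at 75.6 to 81.7, and Oat in S37F H2 at 84.9, with the others at 109 to 115.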

How the results depend on the processing

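The count of 7 genes moved with the processing. DESeq2 called 29, a fit without a filter on low counts 126, a fit with mutation as the factor 30, a fit of all 15 clones 2, counts summed per mutation 3 and counts thinned to the smallest library 4. Of the 2, 3 and 4 genes in the last 3 fits, 1, 2 and 3 were among the 7. Leaving out both S37F clones gave 2, both T41A clones 0 (932 at an unadjusted p below 0.05) and both T41I clones 1, which was not among the 7. The mitochondrial share as a covariate, chosen after the data were seen, gave 2. Leaving out 1 clone gave 0 to 6, and the 3 fits with 0 calls had 755, 755 and 813 genes at an unadjusted p below 0.05. Other size factors gave 7. The Wnt target median stayed below 0 in every alternative. Over the named genes and all alternatives, 21 values turned sign, 87 lost and 34 gained an adjusted p below 0.05. Sp5 was at 0.02 with counts summed per mutation, 0.20 without both S37F clones, 0.38 without both T41A clones, 0.02 with the mitochondrial covariate and -0.27 to 0.14 without 1 clone. Znrf3 was at 0.10 and Notum at -0.05 with thinned counts, and Notum at -0.52 without both T41I clones. Without 1 clone they ranged from -0.15 to 0.09 and from -0.36 to 0.19. Nanog was at -0.02 and Nes at -0.03 without both T41A clones, Nes at -0.07 without both S37F clones, and Zic2 at -0.11 with the mitochondrial covariate. The primitive endoderm median was -2.26 without both T41A clones and -2.09 without T41A C1. No paired analysis was possible because the numbers only count clones within a mutation. Depth limits genes near 3 counts.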

Other observations

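Plagl1, an imprinted factor that was not tested because too few clones passed the filter on low counts, was at 0 to 2.96 CPM in the 5 codon 37 clones. In the codon 41 clones it was at 31.2 CPM in T41A C1, 61.0 in T41A E6 and 72.3 in T41I B9, but at 0.776 in T41I A6. Grb10, another imprinted gene, was at 12.3 CPM in S37Y A5 and 31.7 in T41I B9, against 74.5 to 107 CPM in the other 7 clones. Both genes were chosen after their values were seen, and no test was made.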
